A study of Mus musculus with 48 samples.

Results

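The livers of mice with an activated MYC transgene were compared directly with the livers of mice with mutant β-catenin, 4 days after induction. The members are the 3 MYC mice and the 3 β-catenin mice of day 4, which gave 12 of the 48 libraries and are 6 of the 24 mice in the series. Each mouse gave a library of ribosome-protected fragments (RPFs), the stretches of mRNA held inside translating ribosomes, and a library of cytoplasmic RNA from the same lysate. The first group, M, carried the R26-LSL-MYC allele, in which a MYC transgene at Rosa26 is silent until Cre removes a stop cassette. The second group, B, carried the Ctnnb1 ex3/+ allele, in which Cre removes exon 3 of 1 copy of β-catenin and so yields a protein that escapes degradation. Both groups were males aged 2 to 4 months, on a mixed C57BL/6 background, and received AAV8.TBG.PI.Cre.rBG as did the 3 wild-type (WT) mice of day 4 that serve as the reference below. The labels give the dose as 2e+11 genome copies per mouse in one field and per ml in another. The TBG promoter limits Cre to hepatocytes, so the other cells of the liver keep the unrecombined alleles. The day 4 and day 10 mice were induced at different times and harvested together, and each sample is a separate mouse.

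MYC is a transcription factor that, paired with MAX, binds E-box motifs and drives genes for ribosome production, nucleotide synthesis and cell division. Stabilised β-catenin enters the nucleus and, with TCF/LEF factors, drives Wnt target genes, among them those that give the hepatocytes around the central vein (zone 3) their identity in glutamine synthesis, bile acid synthesis and drug metabolism. Hepatocytes around the portal vein (zone 1) see little Wnt signal and carry out urea synthesis and gluconeogenesis.

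The RPF libraries held 11266040 to 12555732 counts in M and 11851629 to 12666018 in B, and the RNA libraries held 4537343 to 6540116 and 5009967 to 5791540. No pair of libraries held identical values. Correlations of log levels across genes were 0.988 to 0.993 between M mice and 0.991 to 0.992 between B mice in RPF, and 0.974 to 0.979 between an M and a B mouse. Levels are given as CPM, counts scaled to a common library size by the trimmed mean, differences are log2 M minus B with their standard error, and adjusted p-values are Benjamini-Hochberg values from edgeR's quasi-likelihood test over all genes tested. In whole liver, fewer cells of a type and less RNA per cell cannot be told apart.

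The induced alleles were read first. Reads on Myc in RPF were 62.1, 57.5 and 61.6 CPM in the M mice against 19.7, 11.9 and 35.3 in the B mice (log2 1.45 ± 0.29, adjusted p = 0.006), and the groups did not overlap. In RNA the Myc levels were 28.9, 30.5 and 34.9 CPM in M against 28.8, 27.3 and 48.3 in B, and did not pass (log2 -0.15 ± 0.18, adjusted p = 0.641). Reads of the MYC transgene and of the endogenous gene (chromosome 15, GRCm39) cannot be separated in these tables. Both layers were aligned to mouse transcripts, and how many transgene reads each layer's Myc count holds is not known. The RNA value is therefore no measure of transgene expression. Ctnnb1 lay at 359 to 376 CPM in M and 341 to 399 in B, and its gene-level count cannot show the loss of 1 exon.

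A large share of the liver's genes differed between the oncogenes. Of 11227 genes tested in RPF, 1308 (11.7%) were higher in M and 1116 (9.94%) higher in B, and 326 and 198 of them by at least 2-fold. In RNA, 951 (8.54%) of 11132 were higher in M and 730 (6.56%) higher in B. Among 10425 genes tested in both, 673 were higher in M and 543 higher in B in both layers, and 0 had calls in opposite directions. Scaled by library totals alone, in place of the trimmed mean, the median gene moved to 0.13 in RPF and 0.17 in RNA and the share of calls that were higher in M went from 54.0% to 78.6% and from 56.6% to 84.6%. The differences below are therefore relative to the median gene.

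**Figure D1:**
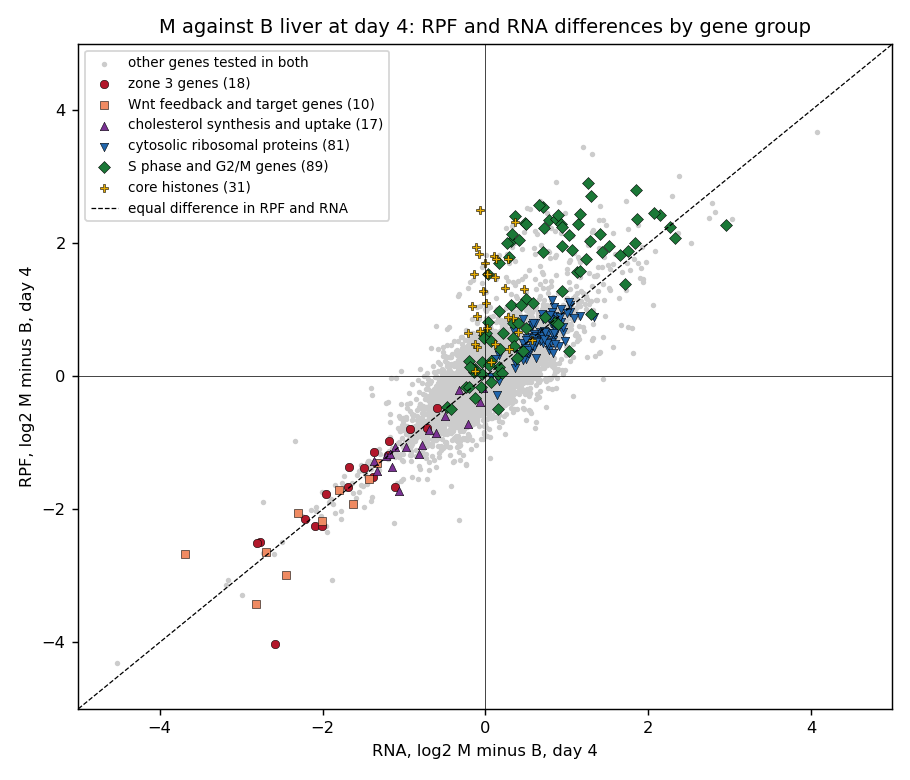
Each point is a gene tested in RPF and RNA, placed by its log2 difference M minus B in RNA (x axis) and RPF (y axis), with 6 gene groups coloured and the dashed line marking equal differences. Zone 3, Wnt and cholesterol genes lie below 0 on both axes, ribosomal protein genes lie above 0 on nearly all points, and many cell cycle and histone genes sit above the dashed line.

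The Wnt program separated the groups most clearly. All 10 Wnt feedback and target genes tested were higher in B in RPF, with a median of -2.11 against -0.003 over all genes, and all 10 in RNA, with a median of -2.15. Of the 12 listed, 10 passed the filter, and a gene low in M, such as Sp5, could pass it through the B libraries alone. The count therefore leans toward genes that are high in B. The RPF level of Axin2, a scaffold of the β-catenin destruction complex and a feedback target, was 1.76, 2.76 and 1.54 CPM in the M mice and 18.2, 27.1 and 21.7 in the B mice, a difference of 10.7-fold (log2 -3.42 ± 0.22, adjusted p = 3.84e-05). Lgr5, the R-spondin receptor, was at 11.1, 14.6 and 12 CPM in M and 58.3, 86.4 and 92.8 in B (6.22-fold lower in M). Every B mouse was above every M mouse for both genes; over all genes tested in RPF, the 3 B mice were all above the 3 M mice in 21% and all below them in 19.1%. Sp5, a transcription factor and Wnt target, lay at 0.263, 0.613 and 0.636 CPM in M and 2.3, 5.04 and 2.72 in B (log2 -2.68 ± 0.43), and Tcf7, a partner of β-catenin on DNA, differed by -2.99. Kif26b, a kinesin outside the lists that ranked among the largest differences, differed by -3.29 in RPF and -2.99 in RNA.

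All 18 zone 3 genes were higher in B, in RPF (median -1.59) and in RNA (median -1.58), with single values from -4.03 to -0.48 in RPF. Glul, glutamine synthetase (chr1:153775690-153785469, plus strand, GRCm39), was at 688, 799 and 578 CPM in the M mice and 3060, 3990 and 4650 in the B mice, and WT mice averaged 845 ± 18.8 (SD, n = 3). The difference was 5.6-fold in RPF and 6.8-fold in RNA. Oat, the ornithine aminotransferase of the same cells, was at 485, 545 and 608 CPM against 2700, 2650 and 4110 (log2 -2.51 ± 0.18, adjusted p = 4.38e-05). Both genes put the M mice at or near the WT level: Glul in M differed from WT by -0.26 and Oat by -0.038, and neither passed. Tuba8, a tubulin on the zone 3 list, was lower in M at 1.05, 2.22 and 0.727 CPM than in B at 19.7, 27 and 21.7 (16.3-fold), and Avpr1a, the vasopressin receptor of the hepatocyte, was at 21.9, 19.1 and 14.3 against 74.3, 103 and 87.8. Against WT, 18 of 18 zone 3 genes were higher in B, where 4.39% of all genes tested were higher and 4.1% lower, while 6 were lower and 1 higher in M, where 11.1% were lower and 15.3% higher; these 2 comparisons share the WT mice.

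**Figure D2:**
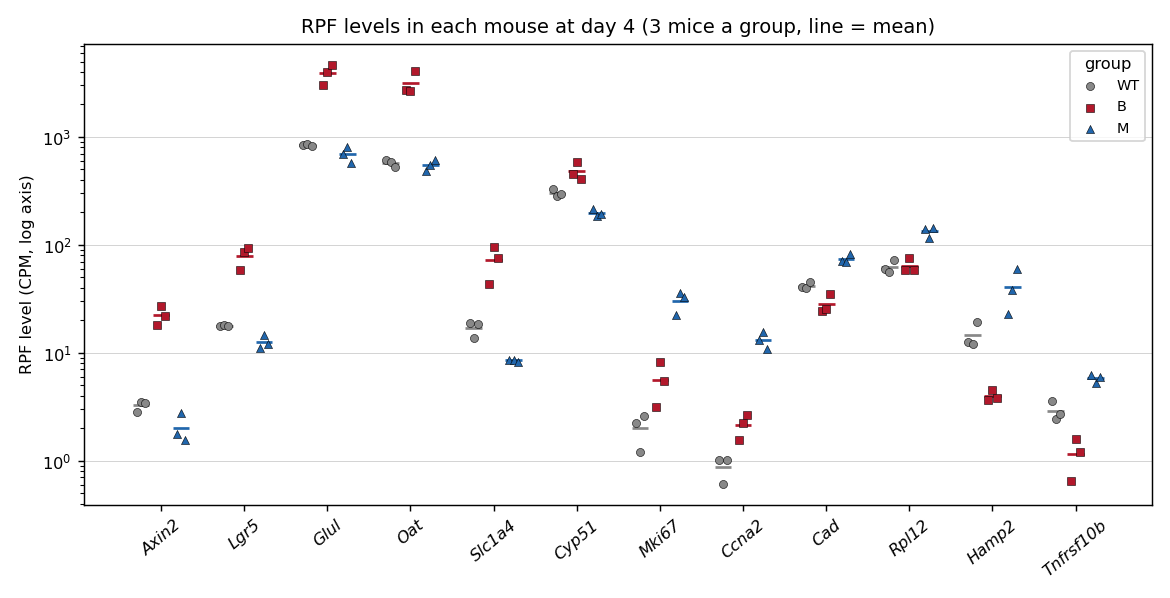
RPF level (CPM, log axis) of 12 genes in each WT, B and M mouse of day 4, with 1 point per mouse and a line at the mean of 3 mice. B stands above WT and M for Axin2, Lgr5, Glul and Oat, M stands above WT and B for Mki67, Ccna2, Cad and Rpl12, and for Slc1a4, Cyp51, Hamp2 and Tnfrsf10b the WT mice lie between M and B on average.

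Promoter sequences of members were searched for the E-box CACGTG, which reads alike on both strands, and for the TCF/LEF-type motif CTTTGNT on both strands; a match to one cannot overlap a match to the other. The windows are RefSeq promoters of build GRCm38.p6, from 250 bases before to 50 after a start site. Of all 32851 windows, 7.15% held CACGTG and 18.6% held CTTTGNT. Among the genes tested in RPF that had a window (8882 of 11227), 11.7% held CACGTG in at least 1 window, against 11.9% of those higher in M and 10.6% of those higher in B. For CTTTGNT the shares were 16.9% of all, 17.2% of those higher in M and 19.6% of those higher in B. Of the 134 named genes, 99 had a window, and 11 held CACGTG and 17 CTTTGNT. The windows of 4 genes are shown because they hold matches, 3 that were higher in B and 1 that was higher in M, with both motifs in capitals. The windows of Axin2, Tcf7, Glul and Oat held no CTTTGNT, and those of Cad, Nhp2, Dkc1 and Rpl12 no CACGTG. They are Sp5 (chr2:70474673-70474972, plus strand), Avpr1a (chr10:122448249-122448548, plus strand), the neutral amino acid transporter Slc1a4 (chr11:20332664-20332963, minus strand) and Cdk4, the G1 kinase partner of cyclin D1 (chr10:127063285-127063584, plus strand).
Sp5: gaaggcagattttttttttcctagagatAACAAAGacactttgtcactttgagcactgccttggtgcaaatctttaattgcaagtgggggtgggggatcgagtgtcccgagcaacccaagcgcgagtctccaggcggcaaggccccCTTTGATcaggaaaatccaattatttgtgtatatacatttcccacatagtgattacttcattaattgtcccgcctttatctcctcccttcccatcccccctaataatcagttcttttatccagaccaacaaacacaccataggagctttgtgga
Avpr1a: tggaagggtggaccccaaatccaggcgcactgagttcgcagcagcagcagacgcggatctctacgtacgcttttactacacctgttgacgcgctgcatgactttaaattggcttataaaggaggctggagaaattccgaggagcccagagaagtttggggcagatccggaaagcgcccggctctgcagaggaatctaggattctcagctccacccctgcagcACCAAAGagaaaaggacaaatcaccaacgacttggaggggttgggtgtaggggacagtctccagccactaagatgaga
Slc1a4: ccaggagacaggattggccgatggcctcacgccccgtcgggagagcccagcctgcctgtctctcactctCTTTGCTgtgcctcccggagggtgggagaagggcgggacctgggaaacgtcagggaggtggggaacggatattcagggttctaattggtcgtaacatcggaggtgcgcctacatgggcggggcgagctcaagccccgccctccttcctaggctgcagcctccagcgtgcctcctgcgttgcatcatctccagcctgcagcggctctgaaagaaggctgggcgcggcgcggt
Cdk4: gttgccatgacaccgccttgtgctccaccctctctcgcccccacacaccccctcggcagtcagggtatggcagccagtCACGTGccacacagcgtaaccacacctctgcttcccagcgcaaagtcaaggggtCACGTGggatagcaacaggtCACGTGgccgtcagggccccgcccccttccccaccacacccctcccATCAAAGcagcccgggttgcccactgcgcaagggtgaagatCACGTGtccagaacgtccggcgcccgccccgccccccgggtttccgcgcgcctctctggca
Sp5 holds 2 matches to CTTTGNT, Avpr1a and Slc1a4 hold 1 each, and Cdk4 holds 4 matches to CACGTG and 1 to CTTTGNT.

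Zone 1 genes leaned the other way, and less far. Of 18 tested, 5 were higher in M and 1 higher in B in RPF (median 0.40), and 11 and 1 in RNA (median 0.58). Aldh1b1, a mitochondrial aldehyde dehydrogenase, was at 238, 246 and 231 CPM in M and 88.1, 97.9 and 139 in B (log2 1.15 ± 0.15, adjusted p = 0.000627). Gls2, the liver glutaminase, was at 390, 381 and 448 CPM against 346, 186 and 269 (log2 0.62 ± 0.19, adjusted p = 0.0411), with B mouse 1 close to the M mice. Cdh1, E-cadherin, was the gene higher in B. The RPF count of 5 became 3 without M mouse 1, M mouse 3 or B mouse 2, 12 without B mouse 1, 9 by DESeq2 and 10 under library totals alone. Of 8 urea cycle genes 3 were higher in M and 1 in B. Otc, ornithine transcarbamylase, was at 912, 914 and 921 CPM in M and 769, 593 and 598 in B (log2 0.50 ± 0.11, adjusted p = 0.0104), and Nags, which makes the activator of Cps1, was the gene higher in B.

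**Figure D3:**
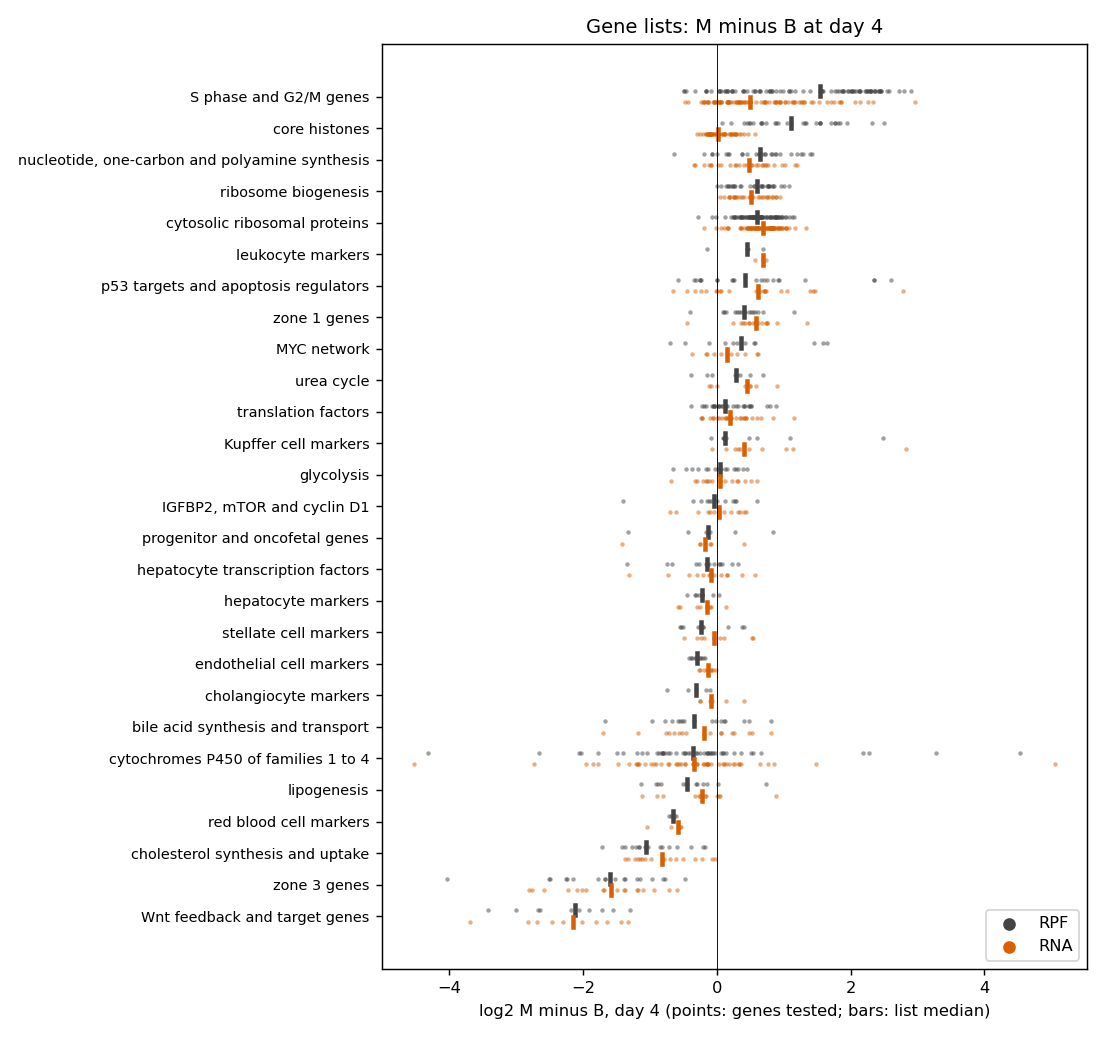
Log2 difference M minus B of every tested gene (points) in each gene list, for RPF in grey and RNA in orange, with bars at the list medians. The lists run from Wnt targets (RPF median -2.11) to S phase and G2/M genes (1.54), and the core histones show a high RPF median (1.11) beside an RNA median of 0.021.

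Most sterol genes were higher in B. Of 17 cholesterol synthesis and uptake genes, 15 were higher in B in RPF (median -1.06) and 13 in RNA (median -0.82), and 0 higher in M. Cyp51, the lanosterol demethylase, was at 213, 184 and 193 CPM in M, 457, 583 and 404 in B and 303 ± 22.5 in WT (log2 M minus B -1.27 ± 0.13, adjusted p = 0.000222). Mvd, the mevalonate decarboxylase, was at 15.4, 12.5 and 12.1 CPM against 39, 51.5 and 42.5. Against WT, 9 of the 17 were lower in M and 1 higher, and 9 were higher in B and 0 lower. Of 13 lipogenesis genes 5 were higher in B and 0 in M in RPF, and of 12 tested in RNA 3 were higher in B and 1 in M; Acss2, which makes acetyl-CoA from acetate, was at 364, 309 and 362 CPM against 692, 769 and 839, and Scd1, the fatty acid desaturase, differed by -0.83.

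Bile acid and drug metabolism genes were more often higher in B. Of 17 bile acid genes, 7 were higher in B and 2 in M in RPF. Over all genes tested in RPF, 9.94% were higher in B and 11.7% higher in M. Cyp7a1, the rate-limiting enzyme of bile acid synthesis, was at 111, 192 and 113 CPM in M and 288, 603 and 449 in B (3.18-fold lower in M, adjusted p = 0.00204), and the importer Slco1b2 differed by -0.97, whereas the reductase Akr1d1 (0.81) and the importer Slc10a1 (0.41) were higher in M. Of 50 cytochromes P450 tested, 25 were higher in B and 7 in M. In both lists the count toward M lies near the share over all genes. Cyp4a14, a fatty acid ω-hydroxylase, had the largest difference toward B of any called gene in RPF, at 2.37, 1.23 and 3.36 CPM in M and 35.9, 18 and 83.5 in B (log2 -4.31 ± 0.59). Cyp4a10 of the same family was at 40, 19 and 48.6 against 207, 143 and 336, and Cyp1a1 was 4.17-fold lower in M. The B mice varied over 2-fold among themselves in both Cyp4a genes, and yet none overlapped an M mouse. Cyp3a59 (log2 2.27) and Cyp3a57 (2.18) were higher in M. Cyp2b10 was at 2.98, 2.53 and 3.45 CPM in M and at 0, 0 and 0.34 in B, where the highest library had 4 counts. Members of the Cyp2b, Cyp3a, Cyp4a and Gstm families are near copies, and the split of their reads is uncertain. Pdk4, which shuts pyruvate out of oxidation, was at 8.51, 12.5 and 7.09 CPM against 39.2, 87.8 and 55.9.

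Nearly all ribosomal protein genes were higher in M. Of 81 cytosolic ribosomal protein genes, 74 were higher in M and 0 in B in RPF, with a median of 0.61, and 77 of 85 in RNA, with a median of 0.69. Summed RPF levels of the family were 11100, 9530 and 10700 CPM in the M mice and 6910, 7200 and 6780 in the B mice, and the WT mice at 6300 to 7770 overlapped B alone. Rpl12 was at 141, 116 and 142 CPM in M and 58.2, 75.4 and 58.1 in B (2.11-fold, adjusted p = 0.000354), and Rps20, Rps12 and Rpl35 differed by 1.15, 1.13 and 1.04. Ribosomal protein genes have many processed copies in the genome, which can take part of their reads.

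Of 30 ribosome biogenesis genes 20 were higher in M and 0 in B in RPF (median 0.61), and 17 in RNA (median 0.51). Nhp2 and Dkc1, partners in the RNP that modifies ribosomal RNA, were at 33.2, 28.6 and 27.8 CPM against 14.8, 14 and 14 and at 44.6, 45.4 and 51.7 against 24, 24.1 and 23.4. The nucleolar chaperone Npm1 was 1.95-fold and Polr1a, the large subunit of RNA polymerase I, 1.81-fold higher in M. Of 28 genes of nucleotide, one-carbon and polyamine synthesis, 19 were higher in M in RPF and 16 in RNA, and 0 in B. Cad, which opens pyrimidine synthesis, was at 71.2, 69.3 and 82.3 CPM in M, 24.6, 25.6 and 35.3 in B and 41.9 ± 2.72 in WT (log2 1.40 ± 0.14, adjusted p = 0.000198), and in RNA it differed by 0.67. Srm, spermidine synthase, was 2.38-fold higher in M. Of 30 translation factors 11 were higher in M in RPF and in RNA, led by subunits of elongation factor 1, Eef1b2 (log2 0.89 in RPF, 1.15 in RNA) and Eef1g (0.80). In the MYC network 6 of 12 genes were higher in M in RPF, among them Mycl, Mxd3 and Mxd4, and Mlx was higher in B, whereas in RNA 2 of 11 were higher in M and 1 in B. The 6 include Myc, whose reads cannot be told apart from the transgene's, and became 3 without M mouse 3. Mycl differed by -0.039 in RNA and did not pass there.

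Most cell division genes were higher in M in RPF. Of 93 S phase and G2/M genes, 65 were higher in M and 2, Tubb4b and Lbr, higher in B in RPF, with a median of 1.54. In RNA 36 of 89 were higher in M and 1 in B, with a median of 0.49; DESeq2 called 21 in RNA, and a minimum of 10 counts in every library left 43 of 70 in RPF and 23 of 69 in RNA. Mki67, the proliferation marker, was at 22.2, 36 and 32.9 CPM in M, 3.13, 8.21 and 5.45 in B and 2.01 ± 0.71 in WT (log2 2.46 ± 0.28, adjusted p = 0.000354), and in RNA at 34.8, 53.8 and 48.6 against 8.31, 13.7 and 10.8. Ccna2, cyclin A2, was at 13.2, 15.4 and 10.8 CPM against 1.56, 2.24 and 2.64 in RPF, a difference of 6.15-fold, and at 13.5, 17.4 and 20.9 against 7.91, 8.91 and 10.8 in RNA, a difference of 1.86-fold. Ccnb1 and Cdc20, of mitotic entry and exit, differed by 2.51 and 2.37 in RPF. B was itself above WT for some of these genes: 16 of 71 tested in B against WT were higher, Mki67 among them (log2 1.44), where 4.39% of all genes were, and in M 72 of 92 were, where 15.3% of all genes were. The filter was set in each comparison by its own libraries, and a gene could pass it through the group where it was high, so the 92 and the 71 are not the same set and their shares are not compared. Among the list's genes that fell into a class below, 31 passed against WT in M and not in B, 15 passed in both but unequally, and 1 was alike.

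Translation efficiency (TE), the RPF level per RNA level, was tested by asking whether the group difference depended on the library type, at an adjusted p under 0.1. Of 10425 mRNAs, 30 (0.288%) had higher TE in M and 2 (0.0192%) higher TE in B, and 611 had an unadjusted p under 0.05. Of the 30, 12 were core histone mRNAs and 8 were on the S phase and G2/M list, and the others included Ccna2, the DNA repair factor Fanci, the purine enzyme Impdh1 and Ezh2. RPF and RNA came from the same mice, and with the mouse as a block the counts were 156 and 53, all 32 mRNAs included, with 20 histone mRNAs and 27 on the S phase and G2/M list higher in M. DESeq2 gave 48 and 4. Without M mouse 2, B mouse 1 or B mouse 3 the 30 became 10, 18 and 13, the 12 histone mRNAs became 6, 8 and 7 and the 8 on the S phase and G2/M list became 3, 5 and 3, and the 2 became 0 or 1 without any single mouse other than B mouse 1.

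For Ccnb2, cyclin B2, the log2 ratio of RPF to RNA was 0.67, 0.38 and 0.21 in the M mice and -1.32, -1.27 and -1.12 in the B mice (difference 1.83, 95% interval 1.03 to 2.64). Top2a, the topoisomerase that untangles replicated DNA, gave -1.22, -0.97 and -1.22 against -3.29, -2.15 and -2.82, and the condensin subunit Ncapd2 gave 0.12, 0.18 and 0.02 against -1.62, -0.88 and -1.57. Top2a RNA differed by only 0.42 (adjusted p = 0.0428) while its RPFs differed by 2.05. Mki67 was unlike them, since its RNA differed nearly as much as its RPFs, and its TE difference of 0.40 did not pass. Rdh9, a retinol dehydrogenase, had higher TE in M through RNA that was lower (-2.33) by more than its RPFs (-0.97). Higher TE in B was found for Bmp7, a growth factor (-1.83), and Ugt1a2, a glucuronidation enzyme (-1.22, adjusted p = 0.1 when rounded).

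Core histone genes, taken by symbol after the TE calls had been seen, are given as a description. In RPF 24 of 31 were higher in M and 0 in B (median 1.11), in RNA 2 of 49 were higher in M (median 0.021), and in TE 12 of 31 (median 1.10), a count that was 6 to 13 without single mice. The RPF filter kept 31 of the 49, and a gene could pass it through the M libraries alone; with at least 10 counts asked of every library, 19 of 26 were higher in M in RPF (median 0.91) and the TE count was 10 (median 0.85). H3c14 (chr3:96154001-96155825, plus strand, GRCm39) was at 63.6, 60.1 and 55 CPM in M and 18.9, 22.6 and 20.6 in B in RPF (log2 1.54 ± 0.09, adjusted p = 3.84e-05), and at 102, 99.8 and 137 against 121, 116 and 135 in RNA (log2 -0.14 ± 0.12, adjusted p = 0.473). H2bc3 behaved in the same manner, with 12.3, 8.81 and 8.54 CPM against 2.3, 3.26 and 3.23 in RPF and an RNA difference of 0.12. Under library totals alone the RNA count went from 2 to 12. Histone genes are near copies of each other, so which copy the reads came from is uncertain.

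**Figure D4:**
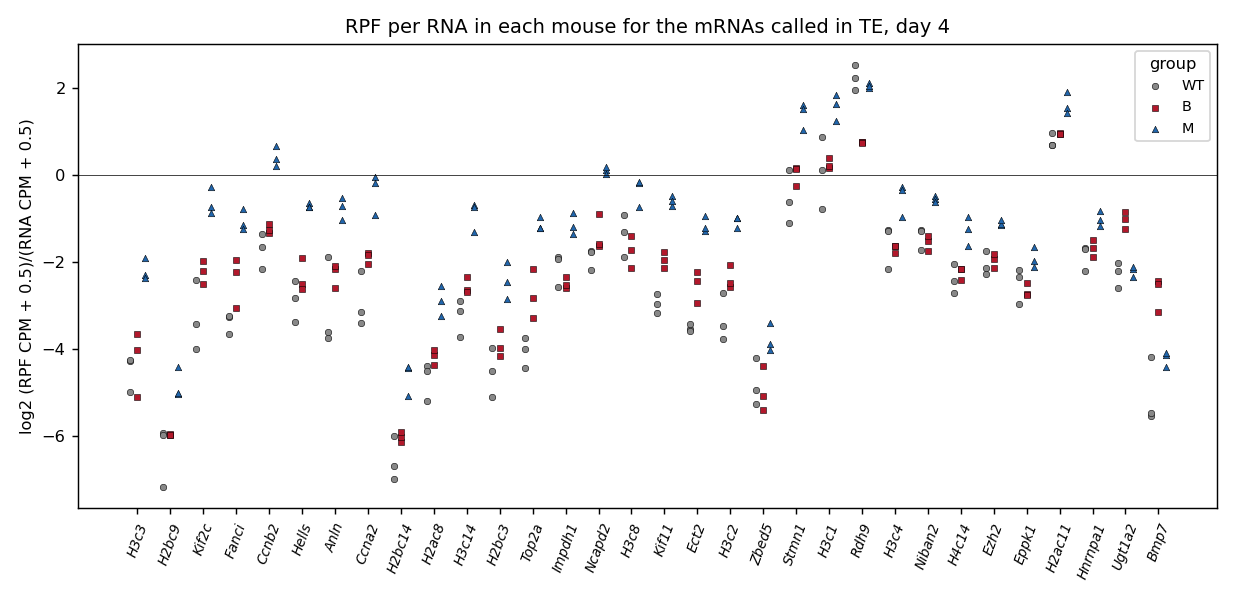
Log2 ratio of RPF to RNA (CPM + 0.5 in each, y axis) for the 32 mRNAs called in TE, with 1 point per mouse for WT, B and M at day 4. The M mice lie above the B mice for the 30 mRNAs on the left and below them for Ugt1a2 and Bmp7; WT mice lie near or below B for most cell cycle and histone mRNAs and near M for Rdh9.

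Some genes of the p53 response were higher in M. Of 22 tested, 10 were higher in M and 2 in B in RPF, and 9 and 1 in RNA. Without M mouse 1 the 10 became 6 and the 9 became 5, and DESeq2 gave 5 in RNA. A gene low in B could pass the filter through the M libraries alone. Against WT in RPF, 6 were higher and 4 lower in M, and 2 higher and 7 lower in B. Over all genes 15.3% were higher and 11.1% lower in M, and 4.39% and 4.1% in B. In RNA 3 were higher and 4 lower in M, and 0 and 4 in B. Eda2r, a receptor of the TNF receptor family induced by p53, was at 6.41, 7.51 and 7.81 CPM in M and 0.552, 1.4 and 1.62 in B (6.08-fold, adjusted p = 0.00029), and at 23.9, 26.2 and 33.5 against 3.65, 3.11 and 5.27 in RNA. Tnfrsf10b, the TRAIL receptor, was at 6.23, 5.29 and 5.9 CPM against 0.644, 1.59 and 1.19, and Phlda3, an inhibitor of AKT, at 3.25, 2.83 and 3.18 against 0.276, 1.03 and 0.51. Casp8, an initiator of apoptosis, was higher in B, at 32.5, 37.5 and 38.4 CPM in M and 56.7, 53.5 and 52.8 in B (log2 -0.57 ± 0.09, adjusted p = 0.00179).

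Ccnd1, cyclin D1, was lower in M than in B. It was at 14.8, 15.4 and 9.45 CPM in M, 23, 43.4 and 40.4 in B and 36.8 ± 3.73 in WT (log2 M minus B -1.41 ± 0.24, adjusted p = 0.00288), so that M was low and B was at the WT level. Its partner Cdk4 was at 9.22, 11.6 and 9.18 CPM in M against 7.54, 6.06 and 6.55 (log2 0.60, adjusted p = 0.0195), a call that was lost with DESeq2 and without M mouse 2, B mouse 2 or B mouse 3. Mtor (-0.091, adjusted p = 0.595) and Igfbp2 (-0.23, adjusted p = 0.135) did not pass, and their 3 mice a side overlapped for Mtor. In the list of 12 genes on IGFBP2, mTOR and cyclin D1, 2 were higher in M and 2 in B. Of 17 glycolysis genes 2 were higher in M, among them the glucose transporter Slc2a2 (0.39), and 3 in B, among them Ldha (-0.65). Over all genes tested in RPF, 11.7% were higher in M and 9.94% higher in B. The counts of both lists are small and near these shares, and are not read as a result on either list. Of 15 hepatocyte transcription factors Cebpa was higher in M, and Ahr, Foxa3, Onecut2 and Nr1i3 higher in B. Of 6 progenitor genes tested Afp, α-fetoprotein, was higher in B at 6.53, 12.9 and 11.7 CPM against 4.21, 3.68 and 4.36.

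Genes were then sorted by what each oncogene did relative to WT and to the other. M differed from WT in 2928 of 11115 RPF genes (26.3%) and B in 938 of 11058 (8.48%). A gene was called opposite when both differed from WT in opposite directions and M and B differed. It was alike when both differed the same way and the 95% interval of M minus B lay wholly within 1.5-fold. An alike gene could still pass between M and B, as Slc2a2 and Nr1i3 did in RPF. It was unequal when both went the same way, M and B differed, and that interval did not lie wholly within 1.5-fold. It was apart when M and B differed and only 1 of them differed from WT. Of 10893 genes tested in all 3 fits, 67 (0.615%) were opposite, 261 (2.4%) alike, 101 (0.927%) unequal, 1279 (11.7%) apart through M and 271 (2.49%) apart through B. In RNA the counts were 27 (0.249%), 167 (1.54%), 63 (0.58%), 799 (7.36%) and 234 (2.15%) of 10859. The 3 WT mice enter both comparisons with WT, so the counts describe the sorting and are not independent of each other.

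Of the 67 opposite genes 51 were lower in M and higher in B, and 16 the reverse. The 51 held 6 zone 3 genes (Avpr1a, Cldn2, Cyp1a2, Gulo, Slc13a3, Tuba8), 2 Wnt targets (Lgr5, Notum), 4 cholesterol genes (Cyp51, Fdps and Idi1 among them) and 4 glutathione transferases. Slc1a4 was at 8.6, 8.58 and 8.27 CPM in M, 43.6, 96.2 and 75.5 in B and 17 ± 2.72 in WT, with log2 differences from WT of -0.97 in M and 2.06 in B. Adgrf1, an adhesion G protein-coupled receptor, was at 16.4, 11.9 and 15.4 CPM in M, 68.3, 76.9 and 44.9 in B and 30.9 ± 8.42 in WT, and Chrna2, a nicotinic receptor subunit, followed the same order at lower counts. Gstm3 differed from WT by -0.76 in M and 2.27 in B.

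Among the 16 that rose in M and fell in B were Tnfrsf10b, Phlda3 and Ccng1 of the p53 list and Cad. Hamp2, a copy of the hepcidin gene that sits beside Hamp (chr7:30621797-30624106, minus strand, GRCm39), was at 23, 38.5 and 59.4 CPM in M, 3.68, 4.48 and 3.83 in B and 14.7 ± 3.94 in WT (log2 difference from WT 1.49 in M and -1.89 in B). Its RNA overlapped, at 28.9, 42.9 and 62 CPM in M and 29.6, 13.7 and 9.66 in B. Orm3, an acute-phase orosomucoid, and Sh2d4a, an adaptor with an SH2 domain, were also in this set. The opposite call depended on the reference mice and on the scaling: 27 of the 67 remained in the class without WT mouse 3 and 29 without WT mouse 1. So did 28 under library totals alone. Under all 14 alternative fits, which leave out the changes of margin since those cannot move this class, 13 of the 67 were opposite, among them Tuba8, Avpr1a, Slc1a4, Gstm3, Gulo, Notum and Hamp2. Others held in fewer of the 14: Phlda3 in 5, Sh2d4a in 6, Ccng1, Cad and Orm3 in 9 and Tnfrsf10b in 10. None of these was opposite in RNA. Of 66 opposite RPF genes that could also be sorted in RNA, 22 were opposite there too.

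**Figure D5:**
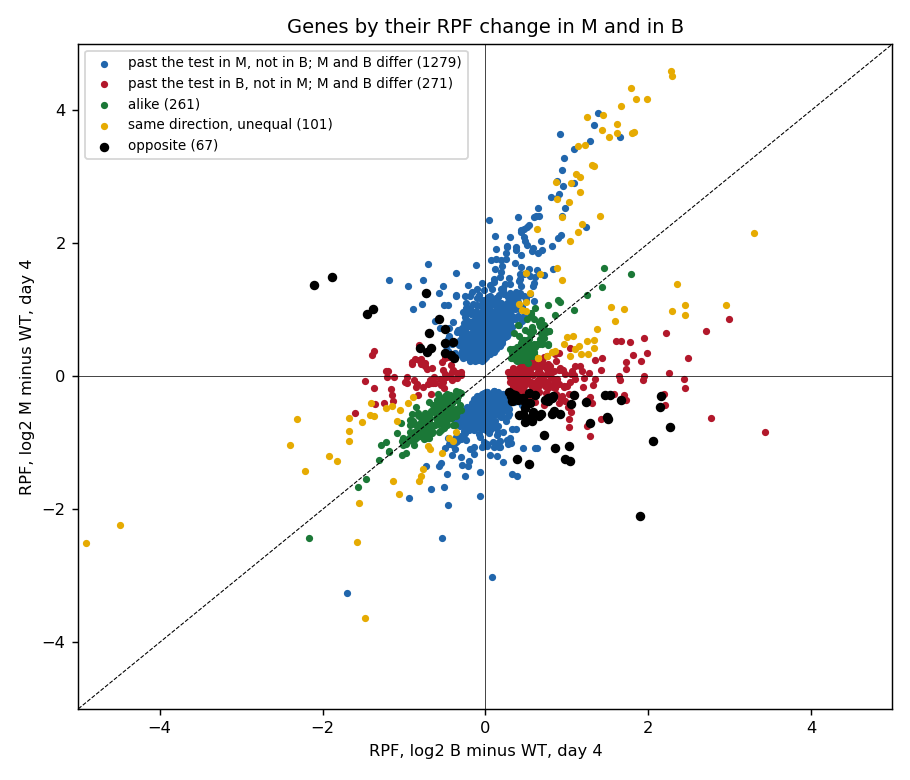
Log2 RPF difference from WT in B (x axis) and in M (y axis) for the genes in 1 of the 5 classes, coloured by class, with the dashed line marking an equal change; 1 gene lies outside the range. Opposite genes fill the lower right and, less densely, the upper left, genes apart through M spread along the y axis and genes apart through B along the x axis.

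Of the 261 alike genes 171 were lower than WT and 90 higher in both groups. Among those that fell, Steap4, a metalloreductase, was at 80.7, 77.2 and 78.8 CPM in M and 113, 80.6 and 100 in B, Lrg1 at 317 to 376 and 368 to 398, and Hpx, which binds haem, at 3500 to 4420 and 3790 to 4580. Stat3, the transcription factor of the acute-phase response, differed from WT by -1.14 in M and -1.18 in B on the log2 scale. The WT mice were spread widely in these genes, at 748, 178 and 381 CPM for Steap4 and 1460, 805 and 1120 for Lrg1, with WT mouse 2 the lowest, and even that mouse was above every M and B mouse. Among the rises, Sucnr1, the succinate receptor, was at 76.7, 66 and 84 CPM in M, 68.6, 71.7 and 67.2 in B and 25.1 ± 5.63 in WT. Susd4, Gas7, Zap70 and Slc16a7 also rose in both. The alike count was 119 without WT mouse 1 and 79 with a narrower margin.

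Most of the separation came from 1 side. Of the 1279 genes apart through M, 838 were raised and 441 lowered by MYC; they held all 69 ribosomal protein genes that fell in any class and 18 of 19 ribosome biogenesis genes. Aqp4, a water channel, was at 10.8, 9.12 and 13.6 CPM in M, 2.48, 1.96 and 2.04 in B and 3.51 ± 0.36 in WT. Serpinb1a, a protease inhibitor, was at 8.51, 13.8 and 14.9 CPM against 2.02, 1.21 and 2.47, and Slfn9 at 22.3, 18.8 and 21.1 against 2.57, 5.69 and 4.68. In the other direction Slc34a2, a phosphate transporter, was at 2.11, 2.3 and 1.45 CPM in M, 22.2, 18 and 12.6 in B and 16.3 ± 5.5 in WT, so that the gap to B was a loss in M. Of the 271 genes apart through B, 209 were raised and 62 lowered, and 11 of the 18 zone 3 genes were here.

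Markers of other liver cells were read beside these results. All 10 Kupffer cell markers, 10 endothelial and 10 stellate markers were detected in both groups, and 0 Kupffer or leukocyte markers passed. The summed Kupffer RPF level was 710, 1420 and 518 CPM in the M mice and 657 to 772 in B, and M mouse 2 also had the highest leukocyte sum (167 CPM against 55 to 82.1 in the other M and B mice). Endothelial sums were 855 to 1030 CPM in M and 1140 to 1250 in B, with 4 of 10 markers higher in B, a count that was 0 under library totals alone, 1 without B mouse 2, 2 without M mouse 1, M mouse 3 or B mouse 1, and 7 without M mouse 2; in RNA 0 of the 10 passed (median -0.14). Stellate sums were 639 to 795 CPM in M and 819 to 889 in B, and 2 of 10 markers were higher in B in RPF and 1 in RNA, where library totals alone gave 0; the 2 became 4 without B mouse 3. Red blood cell sums were 507 to 719 CPM in M and 813 to 1380 in B. Of the 4 red blood cell markers tested in RPF and 5 in RNA 1 was higher in B in each, and with the replicate block 4 and 5 were; without B mouse 1 the counts were 2 and 5. The hepatocyte markers summed to 69300 to 87300 CPM in M and 88600 to 106000 in B, and of 9 tested 1 was higher in B in RPF, which became 0 without M mouse 1, and 2 in RNA, which became 1 without M mouse 1 or M mouse 3. Their part in the differences above was not tested. Without M mouse 2, 1185 genes were higher in M and 894 higher in B in RPF.

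The same comparison at day 10 shows what persisted. Of 1299 genes higher in M at day 4 and tested at both days, 516 were higher in M at day 10 and 10 higher in B, and of 1109 higher in B at day 4, 482 and 15. At day 10, 10.3% of RPF genes were higher in M and 11.5% higher in B, and in RNA 7.3% and 7.69%. The difference itself moved between the days toward M for 2.47% of RPF genes and toward B for 1.37%, and in RNA for 0.918% and 0.978%. Glul kept its gap, with 713, 712 and 713 CPM in M and 5180, 4200 and 3310 in B at day 10. All 17 cholesterol genes were tested again and 16 were higher in B. Of 23 genes on the p53 list tested at day 10, 1 was higher in M and 4 in B in RPF (median -0.15). In RNA 2 were higher in M and 2 in B. Ribosomal protein genes divided between the layers: at day 10 66 of 85 were higher in M in RNA (median 0.67), and 0 of 81 in RPF (median -0.004). M mouse 3 of day 10 stood apart, with a summed ribosomal protein RPF level of 20200 CPM against 9100 and 7850 in the other M mice. The B mice of day 10 were also spread, at 15700, 11600 and 9110 CPM, and the WT mice lay at 9740 to 11100. B mouse 1, the highest of the B mice, was kept throughout, so the counts toward B rest in part on it. Without M mouse 3, an alternative chosen after seeing the data, 22 of 81 were higher in B in RPF (median -0.51). In RNA 63 of 85 were then higher in M. For S phase and G2/M genes the day 10 medians were -0.27 in RPF and -0.16 in RNA with all mice, and 4 of 94 were higher in M and 4 in B in RPF; without that mouse 3 of 95 were higher in M and 32 in B (median -0.73). In RNA 1 of 90 was higher in M and 2 in B with all mice, and 1 and 18 without it (median -0.46).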

How the data were processed

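The authors trimmed RPF reads (cutadapt 1.18), removed duplicates by unique molecular identifier, aligned them to 1 transcript per gene, the one with the highest mean level in RNA (GENCODE, GRCm39), and deposited raw counts over the coding sequence without its ends. RNA was aligned with Bowtie2 2.3.5.1, and the deposited expected counts are RSEM 1.3.3 estimates per isoform; the TPM, FPKM and isoform percent columns the authors deposited beside them were not used. Expected counts were summed per gene and rounded. Gene symbols were found for 20614 of 20622 genes.

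Counts were tested in R 4.3.3 with edgeR 4.0.16 (trimmed-mean scaling, filterByExpr with a minimum count of 10 and a minimum total of 15, quasi-likelihood test, Benjamini-Hochberg adjustment) on the M and B mice alone, at an adjusted p under 0.05, and under 0.1 for the interaction of group and library type (TE). Each group was also set against WT, and the day 10 minus day 4 difference of M minus B was an interaction term. The total per library, 4537343 to 12666018 counts, sets the precision; p-values measure the spread between 3 mice a side. Library batches were not given in the sources used here. Design text and data pair the RPF and RNA library of a mouse: their deviations from the group means correlated at 0.264 to 0.499. The code was tested on simulated data.

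Members and gene lists were chosen with earlier results of these data known; the core histone list was added after seeing the TE calls. Named genes are 10 fixed genes, up to 4 called members of each list and direction with the largest RPF change whose groups do not overlap, the 8 largest called changes per layer and direction at a mean of at least 5 CPM, the 8 opposite genes and 5 alike genes of each direction with the largest changes against WT, and the 5 largest day interactions of each direction; other genes given by name were chosen after their values were seen. Alternatives were other scalings, DESeq2 1.42.0, other filters, WT mice in the fit, a replicate block, RNA of the RPF transcript alone, other margins and leaving out each mouse. Some members of the lists are counted but not reported by name here.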

Additional observations from a re-analysis of the deposited data

Results flagged for a closer look

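The M minus B difference changed between day 4 and day 10 for a set of genes, by the interaction of group and day in edgeR with adjustment over all genes tested. In RPF 289 genes moved toward M at day 10 and 161 toward B, and in RNA 107 and 114. Leaving out single mice moved these counts widely, as given with the alternatives. Of 18 zone 1 genes, 9 moved toward M in RPF and 0 toward B. Hal, the histidine ammonia-lyase of zone 1, had overlapping groups at day 4 (658, 590 and 673 CPM in M, 686, 373 and 444 in B) and was at 656, 789 and 425 CPM in M and 11.3, 13.1 and 30.9 in B at day 10, an interaction of 4.72 (adjusted p = 0.000662). Cyp2f2, a zone 1 cytochrome P450, went from 1900 to 2040 CPM in M and 1470 to 2310 in B to 2020, 2080 and 1400 in M and 52.4, 49 and 132 in B, an interaction of 4.44.

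Aqp4 stayed at 7.61 to 11.9 CPM in M at day 10 and had 0 counts in all 3 B mice, at least 143-fold below the M mean of 10.3 CPM against a floor of 3 counts over the group; its fitted interaction of 7.65 depends on the prior count. Slc13a2, a dicarboxylate transporter, gave 4.66 with 0.222, 0 and 0 CPM in B at day 10. Sstr2, a somatostatin receptor, gave 4.42 with all mice of both days under 1.5 CPM.

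Toward B, the acute-phase genes Saa1 (-5.07, adjusted p = 0.0275), Saa2 (-5.04) and Orm2 (-4.48) stood out. Saa1 was at 11.5, 12.1 and 19.1 CPM in B at day 4 and 112, 1130 and 300 at day 10, and at 16.4 to 84.7 and 30.5 to 70 in M; B mouse 2 of day 10 was the highest. Orc1, an origin recognition subunit, had 0 counts in B at day 4, at least 7.43-fold below the M mean of 0.668 CPM against that floor, and 0.666 to 1.31 CPM at day 10; its fitted interaction of -6.68 depends on the prior count and is no bound. Spink5, a protease inhibitor, gave -4.11 with all values under 3.5 CPM.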

How the results depend on the processing

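All 2424 RPF and 1681 RNA calls kept their direction under every alternative that tested them. Library totals alone gave 2213 RPF genes higher in M and 602 higher in B, and 1921 and 350 in RNA. DESeq2 gave 616 RNA genes higher in M, 48 and 4 mRNAs in TE, and 362 genes lower at day 10 in the RPF day interaction. With a replicate block joining each mouse's libraries, TE calls were 156 and 53; DESeq2's size factors left 1 mRNA with higher TE in B. M and B mice of one number share only a number (correlations -0.0501 to 0.117); that replicate block gave 1140 and 891 RPF and 1063 and 844 RNA genes. Library totals alone, added for the classes after seeing the data, gave 42 opposite and 402 alike genes in RPF, and 542 alike, 176 unequal and 1579 apart through M in RNA. A narrower margin gave 79 alike genes in RPF and 59 in RNA, and a 2-fold margin 67 and 38 unequal genes.

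Leaving out 1 mouse gave 880 to 1214 RPF genes higher in M and 658 to 904 higher in B (658 without M mouse 1, 694 without B mouse 2), and 579 to 852 and 472 to 694 in RNA (lowest without M mouse 1). TE calls ran from 10 to 28 and from 0 to 2. In RPF, opposite genes ran from 28 to 77, alike from 119 to 263 (171 without M mouse 1, 146 without B mouse 2, 150 without WT mouse 3), unequal from 53 to 118 (53 without WT mouse 1, 67 without B mouse 2, 64 without WT mouse 3), apart through M from 749 (without M mouse 1) to 1237 and apart through B from 168 (without B mouse 2) to 294. In RNA they ran from 10 to 40, 84 to 185, 29 to 73, 446 to 792 and 141 to 289. The day interaction ran from 89 to 706 and 36 to 789 genes in RPF and 57 to 222 and 35 to 288 in RNA, with 706, 789 and 288 without M mouse 3 of day 10 and 222 without B mouse 3 of day 10. The cause of these shifts was not tested.

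Differences that had not passed in their layer changed sign. Under library totals alone the RPF values were Ctnnb1 0.11, Mtor 0.037, Gas7 0.0071, Zap70 0.079, Slc16a7 0.0068, Lrg1 0.0019 and Creld2 0.018, and the RNA values Myc 0.017, Igfbp2 0.071, Nags 0.086, Mycl 0.14, Aldoa 0.027, Nr1i3 0.064, Stab2 0.023, Dnase1l3 0.037, Colec11 0.13, H3c14 0.026, Gas7 0.16, Slc16a7 0.054 and Creld2 0.0051. Leaving out 1 mouse gave RPF values of -0.036 to 0.13 for Hpx, -0.025 to 0.078 for Stat3, -0.071 to 0.041 for Ctnnb1, -0.15 to 0.11 for Zap70, -0.28 to 0.066 for Gas7, -0.17 to 0.015 for Mtor, -0.24 to 0.059 for Slc16a7 and -0.24 to 0.24 for Creld2. In RNA it gave -0.23 to 0.19 for Mycl, -0.14 to 0.098 for Gas7, -0.016 to 0.29 for Hpx, -0.24 to 0.087 for Nr1i3, -0.12 to 0.037 for Colec11, -0.054 to 0.20 for Sucnr1, -0.015 to 0.038 for Ctnnb1 and -0.30 to 0.15 for Myc. Of the other values for named genes, 3584 kept direction and side of the threshold, 230 lost the call and 51 gained it.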
